A study of Mus musculus with 12 samples.

Results

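Bile acid synthesis and signalling through the bile acid receptor FXR were followed in mouse liver through 10 genes, all of which are on the array, out of 18193 genes that have a probe set of their own. Members were chosen by name: every probe set that the platform annotation gives to 1 of the 10 symbols alone was taken, which gave 16 probe sets. They are the hydroxylases Cyp7a1, Cyp7b1, Cyp8b1 and Cyp27a1, the reductase Akr1d1, the conjugation enzymes Slc27a5 and Baat, the FXR gene Nr1h4, and the FXR targets Nr0b2 and Slc51b. The signals of 9 of them passed a filter on dim probe sets (2 or more of the 12 signals above their array's own median) and were tested, while Slc51b was dim on all 12 arrays and is given by its values.

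All mice were female YAP fl/fl animals of 8 to 12 weeks, and all received an AAV8 virus that works from the TBG promoter, which is active in hepatocytes. The knockout mice (KO) received AAV8.TBG.PI.Cre.rBG, which removes Yap1 from hepatocytes and leaves it in other liver cells, and the controls, labelled wild-type (WT), received the same kind of virus with eGFP, AAV8.TBG.PI.eGFP.WPRE.bGH8. TCPOBOP, a chemical that activates the nuclear receptor CAR and makes hepatocytes divide, was given once by gavage in corn oil at 3 mg/kg, 10 days after the virus. Day 0 is represented by 2 arrays per genotype, from mice that received the virus and nothing else, day 1 by a single array per genotype made from a pool, and day 2 by 3 arrays per genotype. Day 0 mice had neither TCPOBOP nor corn oil, so the drug, the gavage and the time since the virus cannot be told apart in any change from day 0. The labels number the arrays as replicates without saying that each came from its own mouse, so p-values measure the spread between these arrays. In whole liver, fewer cells of a type and less RNA per cell cannot be told apart.

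Hepatocytes make bile acids from cholesterol. The classical route opens with CYP7A1, the rate-limiting enzyme, and an alternative route opens with CYP27A1 and continues through CYP7B1, while CYP8B1 directs intermediates toward cholic acid. Bile acids that return from the gut bind FXR in the hepatocyte, and FXR induces Nr0b2, which encodes the repressor SHP, and with it lowers Cyp7a1 and Cyp8b1, so that synthesis is held in check by its own product.

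RefSeq promoter windows of the mouse build GRCm38.p6 (250 bases before to 50 bases after the transcription start) were matched by symbol for 6 of the 10 genes: Cyp8b1, Cyp27a1, Akr1d1, Nr1h4, Nr0b2 and Slc51b. The 250 bases before the start are shown for 3 of these 6 genes: Cyp8b1, which was low at day 1 in both genotypes, Nr0b2, which was called lower in WT and was not called in KO, and Akr1d1, which rose in both. They are written 5′ to 3′ on the gene's own strand, and capitals mark the TATAAA and AGGTCA letters found by a search of both strands (AGGTCA is the core that nuclear receptors bind, and appears as TGACCT where it lies on the opposite strand).
Cyp8b1, chr9:121916306-121916555, minus strand: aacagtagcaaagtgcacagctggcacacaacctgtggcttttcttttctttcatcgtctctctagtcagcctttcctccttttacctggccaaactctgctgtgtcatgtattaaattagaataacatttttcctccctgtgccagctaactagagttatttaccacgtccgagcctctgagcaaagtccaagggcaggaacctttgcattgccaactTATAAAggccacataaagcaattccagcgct
Nr0b2, chr4:133553126-133553375, plus strand: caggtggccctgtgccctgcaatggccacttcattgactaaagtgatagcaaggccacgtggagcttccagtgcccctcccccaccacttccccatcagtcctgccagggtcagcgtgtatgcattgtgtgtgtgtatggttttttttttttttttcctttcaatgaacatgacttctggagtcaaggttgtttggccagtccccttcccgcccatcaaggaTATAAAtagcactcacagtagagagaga
Akr1d1, chr6:37529923-37530172, plus strand: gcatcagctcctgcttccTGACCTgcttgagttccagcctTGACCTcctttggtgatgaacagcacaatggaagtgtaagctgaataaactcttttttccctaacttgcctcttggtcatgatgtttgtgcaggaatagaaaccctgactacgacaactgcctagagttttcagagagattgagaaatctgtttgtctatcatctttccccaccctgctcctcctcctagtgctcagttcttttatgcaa

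TATAAA was found in Nr0b2, from base -28 to -23 before the start, and in Cyp8b1, from base -31 to -26, and is held by 13.6% of the 32851 mouse promoter windows. AGGTCA was found at 2 places in Akr1d1, both on the opposite strand, and at 1 place each in Slc51b and Nr1h4, and is held by 16.3% of windows. The longer element CAAGGTCA, known as an LRH-1 site, is held by 1.56% of windows and by 0 of these 6. The inverted repeat and the direct repeat of AGGTCA spaced by 1 base, written in exact letters, are held by 0.00913% and 0.0396% of windows and by 0 of these 6. A match describes letters in this window and shows no binding. All searches used exact letters, so a site that differs by a base is missed, and 0 matches do not show that a site is absent.

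Signals are MAS5 intensities, and the fits used log2 of the intensity plus 16, so that differences are on that log2 scale and understate the change of dim genes. A gene is read by its brightest probe set that passed the filter. A gene is called when limma's adjusted p, over all 14102 genes tested, was under 0.05. Yap1, the deleted gene, had 999.2 to 1306.3 units on the 6 WT arrays and 449.6 to 796.7 on the 6 KO arrays with its brighter probe set, and the genotypes did not overlap. With its dimmer probe set it had 23.1 to 389.3 units on the WT arrays and 57.8 to 125.7 on the KO arrays, which overlapped. Where the probe sets lie relative to the deleted exons is not given in the sources used here. The range of signals was narrow on the KO day 2 arrays: their highest signals were 48217 to 67457 units against 103216 to 116918 on the WT day 2 arrays, and the median difference between genotypes at day 2 ran from 0.21 for genes under a mean log2 level of 8 to -0.41 for genes above 14. Values after quantile normalization, which gives all arrays 1 range, therefore stand beside a part of the comparisons between genotypes. Where none is printed, a comparison may still depend on the scaling. The 7 hepatocyte markers on the array summed to 216727 to 274232 units on the KO day 2 arrays and 372478 to 427274 on the WT day 2 arrays. As deposited, 4 of the 7 were called lower in KO at day 2, and after quantile normalization 0 were lower and 1 was higher, and their part in the results below was not tested. Defining markers of ileal enterocytes, which use FXR heavily, summed to 119.8 to 543.3 units over the 12 arrays.

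From day 0 to day 2, 3 of the 9 tested genes were called in WT: Akr1d1 rose, and Slc27a5 and Nr0b2 fell. Of all genes, 12.6% were called in that comparison, 7.26% higher and 5.38% lower. In KO, 5 of 9 were called, with Akr1d1 higher and Cyp7b1, Cyp8b1, Slc27a5 and Baat lower, against 8.69% of all genes, 4.2% higher and 4.49% lower. The median change of the 9 genes was -0.41 in WT, against -0.11 over all genes, and -0.83 in KO, against 0.05. After quantile normalization it was -0.45 in WT, against -0.06, and -0.72 in KO, against 0.03. As deposited, the median over all genes also depended on signal level. From genes under a mean log2 level of 8 to genes above 14, it ran from -0.17 to 0.16 in WT and from 0.05 to -0.42 in KO. The 9 genes all lie above a level of 10, so the median over all genes is not matched to them in level. Averaged over both genotypes, 6 of 9 were called against 14.5% of all genes (7.7% higher, 6.84% lower): Akr1d1 rose, and Cyp7b1, Cyp8b1, Slc27a5, Baat and Nr1h4 fell. Over the same days 6 of the 7 hepatocyte markers were called lower in KO (3 of 7 after quantile normalization), and their sum went from 378782 to 447286 units at day 0 to 216727 to 274232 at day 2. In WT 2 of the 7 were called higher and 1 lower, against 0 and 3 after quantile normalization, and the sum went from 319160 to 330160 units to 372478 to 427274. Of 4 stellate cell markers tested, 2 were called lower in each genotype. The part of these markers in the members' changes was not tested. The comparisons share arrays, and the average holds those of both genotypes. When each array was centred on its median, higher calls made up 76.1% of all calls in WT in place of 57.5%, so the balance of directions over all genes depends on the scaling.

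**Figure D1:**
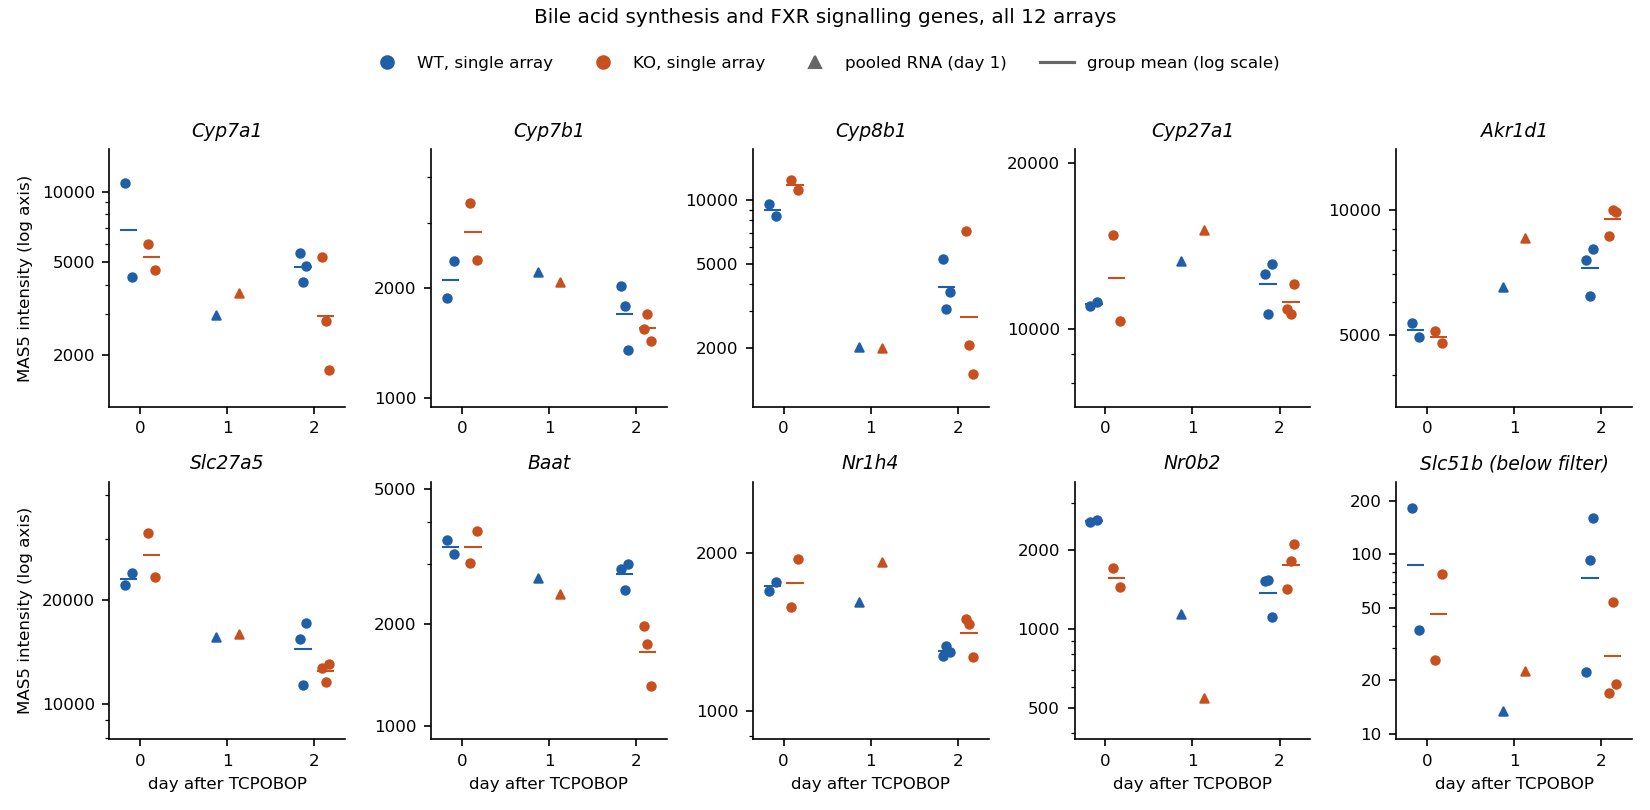
MAS5 intensity (log axis) of the 10 genes on each of the 12 arrays by day after TCPOBOP, in WT (blue) and KO (orange). Circles are single arrays, triangles the pooled day 1 arrays, and bars group means on the log scale. Cyp8b1 sits between 8404 and 12363 units at day 0 and at 2003 and 2014 units at day 1.

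Cyp7a1, the first and rate-limiting enzyme of the classical route, was not called in any comparison, and its arrays lay far apart in the WT day 0 and KO day 2 groups (SD of 0.93 and 0.80 on the log2 scale, against 0.26 at KO day 0 and 0.20 at WT day 2). In WT it had 10849.7 and 4339.5 units at day 0, 2985.8 in the day 1 pool, and 5478.7, 4129.4 and 4824.9 at day 2. In KO it had 5961.7 and 4611.7 units at day 0, 3675.1 in the day 1 pool, and 5244.1, 2802.3 and 1721.6 at day 2. The first WT day 0 array stood far above the second, and the days overlapped in both genotypes. The change to day 2 was -0.52 ± 0.43 (SE, 2 arrays against 3, adjusted p = 0.485) in WT and -0.83 ± 0.43 (adjusted p = 0.292) in KO, and neither was called. Without the first WT day 0 array the WT change was 0.14, in the opposite direction. Averaged over genotypes the change was 1.60-fold lower and not called (-0.68 ± 0.31, adjusted p = 0.188), and it was called without the second WT day 0 array (-1.01, adjusted p = 0.0491) or without the first KO day 2 array (-0.88, adjusted p = 0.0410). Its second, dimmer probe set gave -0.25 ± 0.46 in WT and -0.69 ± 0.46 in KO, and was not called in either.

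Cyp8b1, a sterol hydroxylase that sets the share of cholic acid, had the largest difference between day 0 and day 2 among the 9 tested genes in both genotypes. The WT arrays gave 9553.5 and 8403.8 units at day 0, 2013.8 in the day 1 pool, and 5284.9, 3041.8 and 3662 at day 2. The KO arrays gave 12363.2 and 11149.7 units at day 0, 2002.5 in the day 1 pool, and 7138.2, 2063 and 1512.2 at day 2. Every array after TCPOBOP was below every day 0 array in both genotypes, and the first KO day 2 array stood above the other 5 day 2 arrays. The KO fall of 4.15-fold was called (-2.05 ± 0.52, 95% interval -3.20 to -0.91, adjusted p = 0.0343), and the WT difference of 2.30-fold was not (-1.20 ± 0.52, adjusted p = 0.167). Averaged over genotypes the gene fell 3.09-fold (-1.63 ± 0.36, adjusted p = 0.0133). With only the arrays of the 2 groups compared in the fit, the calls changed places: the WT fall was called (adjusted p = 0.00741) and the KO change was not (adjusted p = 0.0889). The KO call was lost in 7 of 18 alternatives, of which 3 were that fit, array weights (adjusted p = 0.133) and eBayes without trend and robust (adjusted p = 0.0763). The remaining 4 each left out 1 array: adjusted p was 0.131 and 0.106 without the first or second KO day 0 array and 0.0898 and 0.0659 without the second or the third KO day 2 array. Without the first KO day 2 array the KO change was -2.72 (adjusted p = 0.000118), and its difference from the WT change, not called with all arrays (-0.85 ± 0.73, adjusted p = 0.528), was called (-1.52, adjusted p = 0.0477). In 22 of 23 alternatives that difference was not called. The averaged fall was called in each of the 23 alternatives run.

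Cyp7b1, the hydroxylase of the alternative route, fell in KO. In WT its brighter probe set had 1871.1 and 2359.7 units at day 0, 2202.9 in the day 1 pool, and 2016.9, 1780.2 and 1356.4 at day 2. Signals in KO were 3394.9 and 2377.2 units at day 0, 2076.8 in the day 1 pool, and 1546.2, 1699 and 1430.9 at day 2. The KO days did not overlap, whereas the WT days did. The KO fall was 1.82-fold (-0.86 ± 0.20, adjusted p = 0.0187), and the WT change was -0.31 ± 0.20 (adjusted p = 0.353). The difference between the 2 changes was -0.56 ± 0.28 (adjusted p = 0.282), so a larger fall in KO was not shown. The KO call was lost without the first KO day 0 array, the highest of the 12 (-0.61, adjusted p = 0.133), without the first or the third KO day 2 array (adjusted p = 0.0527 and 0.0671), with the mean of its probe sets (-0.70, adjusted p = 0.0572) and with eBayes without trend and robust (adjusted p = 0.0669). The dimmer probe set moved the same way in KO, by -0.54 ± 0.24, and was not called (adjusted p = 0.297 over 34945 probe sets). Its remaining probe set read 77.9 to 199.5 units and was below the filter.

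Cyp27a1, the mitochondrial hydroxylase that opens the alternative route, moved least of the 4 hydroxylases. Signals in WT were 11022.9 and 11169.3 units at day 0, 13250.7 in the day 1 pool, and 12574.9, 10637.1 and 13099.8 at day 2. In KO it had 14815.2 and 10339.3 units at day 0, 15093.5 in the day 1 pool, and 10868.4, 10640.5 and 12073.2 at day 2. Days 0 and 2 overlapped in both genotypes. The change was 0.12 (95% interval -0.22 to 0.46) in WT and -0.15 (-0.49 to 0.20) in KO, and both signs turned after quantile normalization, to -0.15 and 0.01.

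Akr1d1, the reductase that saturates the sterol ring of bile acid intermediates, was the gene among the 9 called higher, in both genotypes. In WT its brighter probe set had 5354.1 and 4942.1 units at day 0, 6543.2 in the day 1 pool, and 7605.2, 6205.8 and 8058.9 at day 2. The KO arrays gave 5096.4 and 4791.5 units at day 0, 8587.3 in the day 1 pool, and 8658.1, 10030.2 and 9926.9 at day 2. Every array after TCPOBOP was above every day 0 array, and each KO day 2 array was above each WT day 2 array. It rose 1.41-fold in WT (0.49 ± 0.14, adjusted p = 0.0350) and 1.92-fold in KO (0.94 ± 0.14, adjusted p = 0.00127). The KO call held in each of 18 alternatives, and the WT call was lost in 10 of 18, among them quantile normalization (0.34, adjusted p = 0.0782) and leaving out any WT array of day 0 or day 2 except the second of day 2 (adjusted p 0.0962 to 0.213). The dimmer probe set gave differences in the same direction that were not called, 0.72 ± 0.37 in WT and 1.01 ± 0.37 in KO, and there the second KO day 0 array, at 4002.9 units, lay just under the KO day 2 arrays, at 4065.6 to 4875.7, and the first at 1222.1. On that probe set the day 1 pool was the highest array of each genotype, at 5312 units in WT and 8836.2 in KO. The WT arrays had 1242.2 and 1362 units at day 0 and 1965.8 to 2546.7 at day 2.

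Slc27a5, the ligase that joins bile acids to coenzyme A before conjugation, fell in both genotypes. In WT it had 22121.9 and 23835.5 units at day 0, 15628.8 in the day 1 pool, and 15424.8, 11351.7 and 17180 at day 2. Signals in KO were 31222.7 and 23260.7 units at day 0, 15912.3 in the day 1 pool, and 12722.7, 11576.5 and 13067.5 at day 2. Every array after TCPOBOP was below every day 0 array of either genotype. The fall was 1.59-fold in WT (-0.67 ± 0.18, adjusted p = 0.0291) and 2.17-fold in KO (-1.11 ± 0.18, adjusted p = 0.00225), and the difference between them was not called (-0.45 ± 0.25, adjusted p = 0.331). After quantile normalization the 2 falls were alike, -0.92 in WT (adjusted p = 0.00115) and -0.87 in KO (adjusted p = 0.00227). Their difference was then 0.047 (adjusted p = 0.926), so the deeper fall in KO depends on the scaling. The WT call was lost when either WT day 0 array or the first or second WT day 2 array was left out (adjusted p 0.0505 to 0.179) and with arrays centred on their medians (adjusted p = 0.117) or eBayes without trend and robust (adjusted p = 0.0866), and the KO call held in each of 18 alternatives.

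Baat, the enzyme that joins bile acids to taurine or glycine, fell in KO and was lower in KO than in WT at day 2, by its brighter probe set. In WT that probe set had 3536.4 and 3201.5 units at day 0, 2730.5 in the day 1 pool, and 2896.3, 2516.2 and 3003.4 at day 2. In KO it had 3018.3 and 3745.5 units at day 0, 2442.8 in the day 1 pool, and 1965.7, 1750.1 and 1308.2 at day 2. The 3 KO day 2 arrays were below the other 9 arrays. The fall in KO was 2.03-fold (-1.02 ± 0.18, adjusted p = 0.00369), and the WT change was -0.27 ± 0.18 (adjusted p = 0.366). Its dimmer probe set did not show this. That one had 2012.7 and 1032.2 units at WT day 0, 1036.7, 846.3 and 1381.1 at WT day 2, 721.1 and 1736.8 at KO day 0, and 1163.2, 882.9 and 980.3 at KO day 2, with all groups overlapping. It gave a KO change of -0.16 ± 0.37 (adjusted p = 0.898), and the KO fall was no longer called with the mean of both probe sets (-0.59, adjusted p = 0.184).

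**Figure D2:**
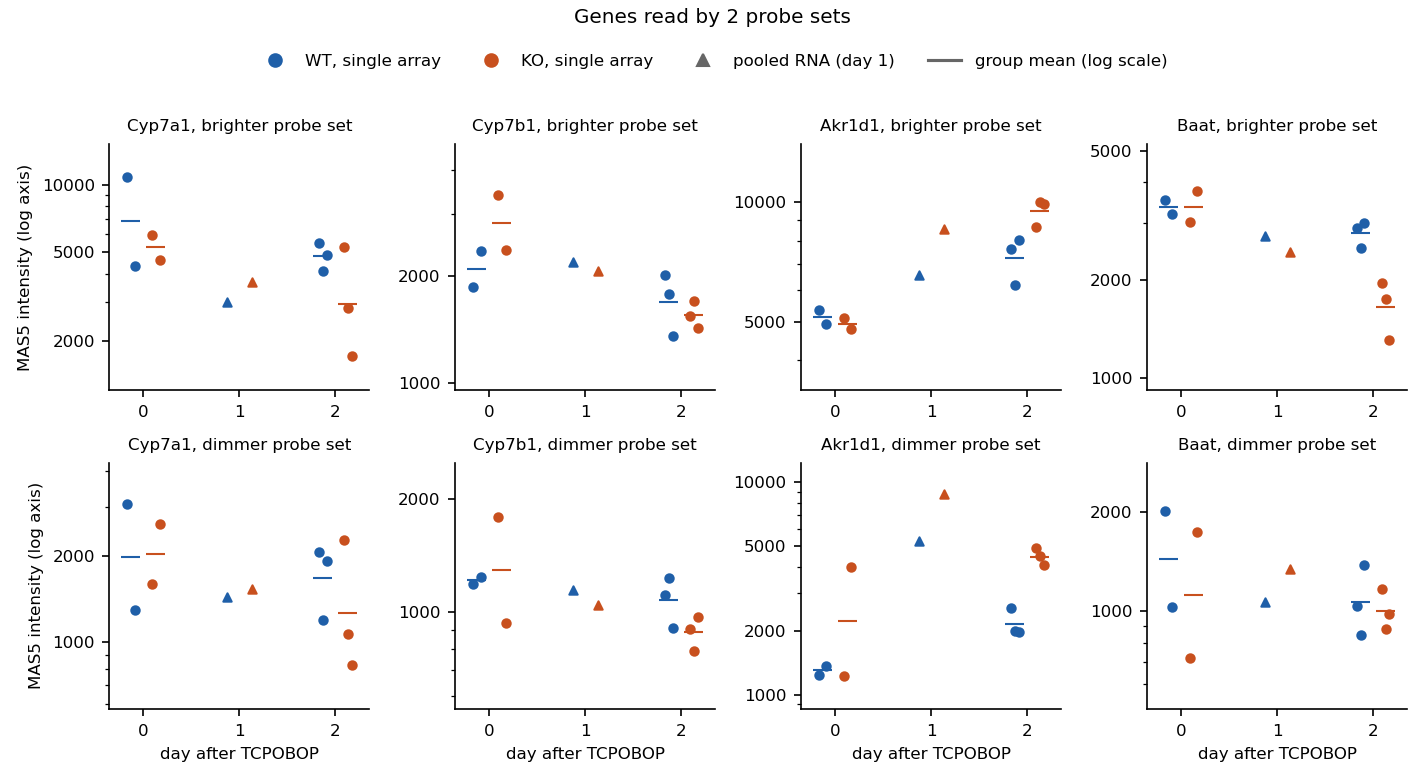
MAS5 intensity (log axis) by day for the 4 genes read by 2 probe sets above the array median on all 12 arrays, brighter above and dimmer below, with arrays, pools and means drawn as in the plot of all 10 genes. For Baat the KO day 2 arrays stand lowest, at 1308 to 1966 units, with the brighter probe set and lie among the others with the dimmer one.

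Nr1h4, the gene of FXR, was called in the average of both genotypes and in neither alone. The WT arrays gave 1693.7 and 1761.7 units at day 0, 1614.4 in the day 1 pool, and 1274.1, 1330.1 and 1297.5 at day 2. The KO arrays gave 1577.9 and 1946.9 units at day 0, 1918 in the day 1 pool, and 1499.6, 1465.5 and 1265.9 at day 2. Day 2 lay below day 0 in both genotypes without overlap, and the day 1 pools lay with or near day 0. The change was -0.41 ± 0.14 (adjusted p = 0.0752) in WT and -0.31 ± 0.14 (adjusted p = 0.196) in KO. The averaged fall of 1.28-fold (-0.36 ± 0.10, adjusted p = 0.0265) was lost in 8 of 23 alternatives, among them leaving out either WT day 0 array, the first WT day 2 array, the second KO day 0 array or the third KO day 2 array, where adjusted p reached 0.0919 at most over all alternatives.

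Nr0b2, the gene of the repressor SHP, fell in WT and was not called in KO. Signals in WT were 2556.9 and 2591.7 units at day 0, 1137.7 in the day 1 pool, and 1517.7, 1529.2 and 1110.4 at day 2. Signals in KO were 1697.4 and 1445 units at day 0, 543.6 in the day 1 pool, and 1417.1, 1805.9 and 2098 at day 2. The WT days did not overlap, the KO day 2 arrays spanned both KO day 0 arrays, and both day 1 pools were low for their genotype. The WT fall was 1.87-fold (-0.90 ± 0.19, adjusted p = 0.00864), and the KO change was 0.16 ± 0.19 (adjusted p = 0.681). The test of the difference between the changes fell short of a call (1.06 ± 0.27, 95% interval 0.48 to 1.65, adjusted p = 0.0554). Of 23 alternatives, 22 left it not called, and it was called in 1, without the first KO day 2 array (1.21, adjusted p = 0.0464). The difference lay between 0.87 and 1.21 over these alternatives. Without either WT day 0 array the WT fall itself was not called (adjusted p = 0.0640 and 0.0694). At day 0 both KO arrays were below both WT arrays, a difference of -0.71 ± 0.21 that was not called (adjusted p = 0.326).

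Slc51b, the smaller subunit of the basolateral bile acid exporter and a strong FXR target in many settings, was at or under 182.1 units on every array and above the array's median on 0 of 12. In WT it had 182.1 and 38.1 units at day 0, 13.3 in the day 1 pool, and 22, 92.6 and 160.5 at day 2. In KO it had 25.6 and 77.5 units at day 0, 22.4 in the day 1 pool, and 16.8, 54.5 and 18.9 at day 2. Arrays of 1 group differed several-fold, all groups with more than 1 array overlapped, and no fold is given. Its partner subunit Slc51a was tested and not called in either genotype (-0.73 in WT, adjusted p = 0.246, and 0.21 in KO, adjusted p = 0.812).

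**Figure D3:**
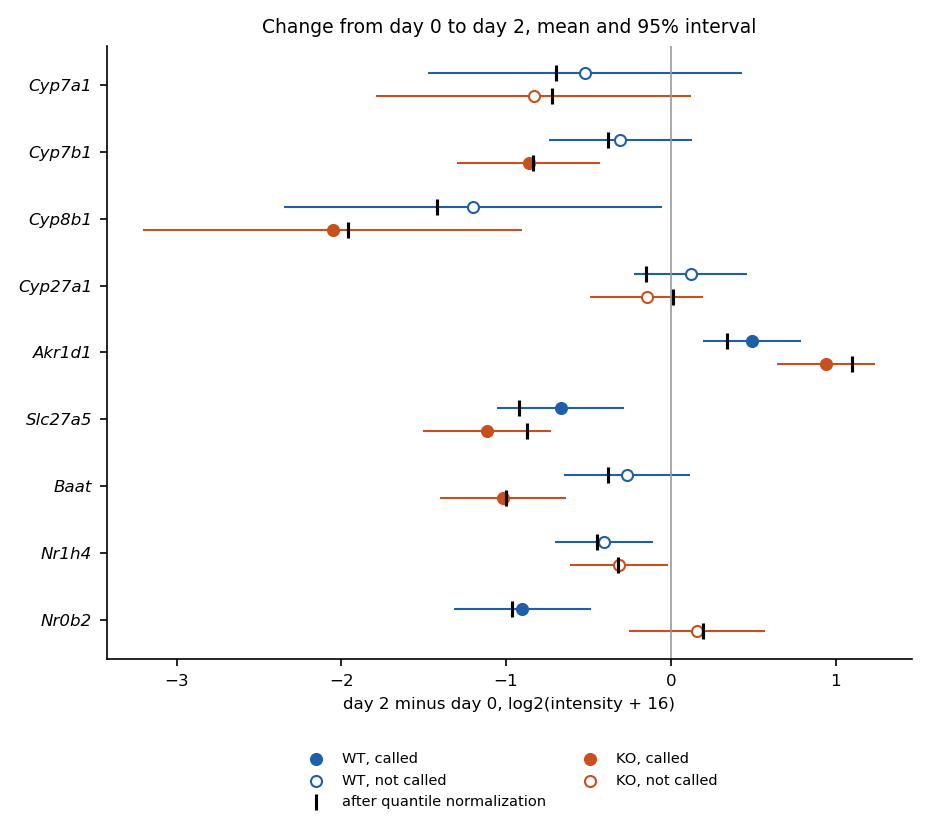
Change from day 0 to day 2 of the 9 tested genes on the log2 scale, in WT (blue) and KO (orange), with 95% intervals; filled points are called, and black ticks give the change after quantile normalization. The interval of Cyp8b1 in KO runs from -3.20 to -0.91 and that of Akr1d1 in KO from 0.65 to 1.24.

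By signals whose groups did not overlap, day 2 stood apart from day 0 for 6 of 9 genes in WT (Cyp8b1, Akr1d1, Slc27a5, Baat, Nr1h4 and Nr0b2), against 45.1% of all genes. The same count in KO was 6 of 9 (Cyp7b1, Cyp8b1, Akr1d1, Slc27a5, Baat and Nr1h4), against 40.4%. With 2 arrays against 3, groups that do not overlap are common over all genes, and the counts are read beside those shares. Each gene was read by its brightest probe set. With the dimmer probe sets, days 0 and 2 overlapped for Baat in both genotypes and for Cyp7b1 in KO.

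The day 1 pools are 1 array per genotype, so their differences have no test. The counts here read each gene by its brightest probe set. The dimmer probe sets of Akr1d1 and, in WT, of Cyp7a1 differed. The mean log2 level of that of Akr1d1 in WT was 10.36 at day 0, 12.38 in the pool and 11.08 at day 2. In KO it was 11.12, 13.11 and 12.13. With that probe set both pools were past 2-fold higher than day 0, and WT fell past 2-fold to day 2. Past 2-fold from day 0 were 3 of 9 genes in WT, all lower, against 13.3% of all genes past that fold and 6.98% lower, and 2 of 9 in KO, both lower, against 12.8% and 6.74%. Cyp8b1 was 4.42-fold lower in the WT pool and 5.82-fold lower in the KO pool, and Nr0b2 was 2.25-fold and 2.83-fold lower. Cyp7a1 was 2.29-fold lower in the WT pool, against a day 0 mean that holds the high array, and 1.42-fold lower in the KO pool. With its dimmer probe set the mean log2 level in WT was 10.97 at day 0 and 10.51 in the pool, which is not past 2-fold. There the WT pool, at 1437.2 units, lay between the WT day 0 arrays, at 3064.1 and 1298.3. The hydroxylase Cyp8b1 and the repressor Nr0b2 were both low at day 1. Between day 1 and day 2 in KO, 1 of 9 genes passed 2-fold, Nr0b2, which was 3.16-fold higher at day 2, against 10.5% of all genes past that fold and 6.72% higher. In WT 0 of 9 passed 2-fold between those days, against 8.18%, with Cyp8b1 1.92-fold higher at day 2. Between the pools of KO and WT at day 1, 1 of 9 passed 2-fold, Nr0b2, which was 2.06-fold lower in KO, against 9.18% of all genes past that fold and 5.1% lower.

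Between genotypes at day 2, Baat was the 1 gene of 9 called, against 9.22% of all genes, 5.23% lower. It was 1.69-fold lower in KO (-0.75 ± 0.16, adjusted p = 0.0151) and -0.65 after quantile normalization (adjusted p = 0.0334). The call was lost without the third WT day 2 array (-0.70, adjusted p = 0.0585) or the third KO day 2 array (-0.59, adjusted p = 0.0519), with the mean of its probe sets (-0.42, adjusted p = 0.242) and with eBayes without trend and robust (adjusted p = 0.0509). Akr1d1, of which no array overlapped either, was 1.31-fold higher in KO and not called (0.39 ± 0.12, adjusted p = 0.0650), but was called after quantile normalization (0.65, adjusted p = 0.00866). Groups did not overlap for these 2 of 9 genes, against 36.2% of all genes. With the dimmer probe set of Baat they overlapped. Nr0b2 differed by 0.35 ± 0.17 (adjusted p = 0.198) and Cyp7a1 by -0.70 ± 0.39 (adjusted p = 0.259). Cyp8b1 differed by -0.46 ± 0.46 (adjusted p = 0.539), and was not called in 18 of 19 alternatives. Leaving out 1 array moved this difference between -1.13 and -0.019 (adjusted p 0.0226 to 0.984). The 1 call was the one without the first KO day 2 array, at -1.13. For Cyp7b1, Cyp27a1, Slc27a5 and Nr1h4 the differences lay between -0.21 and 0.11, with 95% intervals that reach from -0.56 to 0.38 in all. Centring each array on its median took the share of higher calls over all genes at day 2 from 43.3% to 14.6%.

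**Figure D4:**
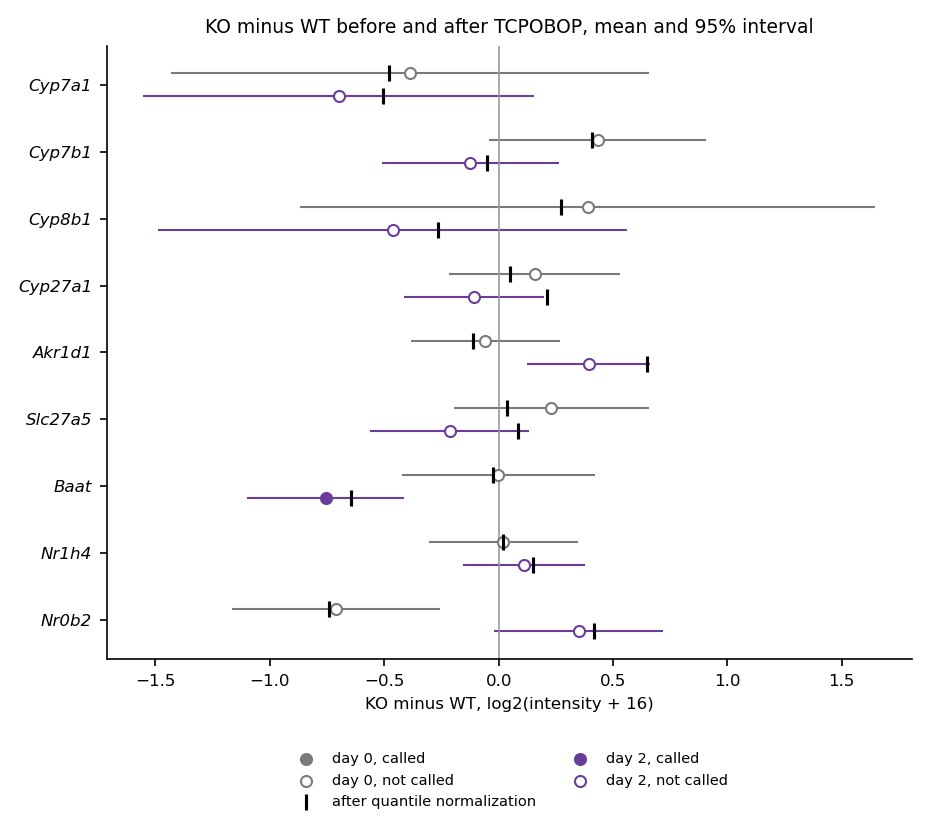
Difference between KO and WT on the log2 scale for the 9 tested genes at day 0 (grey) and day 2 (purple), with 95% intervals; filled points are called, and black ticks give the value after quantile normalization. Baat at day 2 is the filled point, at -0.75, and Nr0b2 lies at -0.71 at day 0 and 0.35 at day 2.

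Before TCPOBOP, limma called 0 of 9 genes between the genotypes, against 0.17% of all genes, and 1 had an unadjusted p under 0.05. That gene was Nr0b2, lower in KO as given above (unadjusted p = 0.00515). Groups did not overlap for Cyp7b1, Cyp8b1 and Nr0b2, 3 of 9, against 35.6% of all genes. With the dimmer probe set of Cyp7b1 they overlapped. With 2 arrays a group, the 95% interval of Cyp8b1 ran from -0.87 to 1.65 and that of Cyp7a1 from -1.43 to 0.66, so differences of that size were not detectable here.

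For the difference between the KO change and the WT change, limma called 0 of 9 genes, against 3.15% of all genes, and 3 had an unadjusted p under 0.05: Nr0b2, Baat (-0.75 ± 0.25, adjusted p = 0.117) and Akr1d1 (0.45 ± 0.19, adjusted p = 0.212). Akr1d1 was called after quantile normalization (0.76, adjusted p = 0.0427), where its KO rise was 1.10 and its WT change 0.34. The 6 other genes had adjusted p from 0.282 to 0.820. Centring on the median took the share of higher calls over all genes in this comparison from 34.5% to 14.02%.

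Other genes of the pathway were taken from 4 lists. Of 17 other synthesis and conjugation genes tested, 1 rose and 3 fell in WT, and 3 rose and 4 fell in KO. Over all genes, 12.6% were called in WT (7.26% higher, 5.38% lower) and 8.69% in KO (4.2% higher, 4.49% lower). Cyp39a1, an oxysterol hydroxylase, rose in both (1.85 ± 0.16 in WT, 0.87 ± 0.16 in KO). It was lower in KO at day 2 (-0.82 ± 0.14, adjusted p = 0.00678), and its change differed between genotypes (-0.98 ± 0.22, adjusted p = 0.0394), a call that was lost after quantile normalization (-0.87, adjusted p = 0.0647). Akr1c14, a hydroxysteroid dehydrogenase of the same reductase family as Akr1d1, had 3214.7 and 3464.7 units at WT day 0, 4728.5, 3863 and 3596.3 at WT day 2, 2715.1 and 3977.8 at KO day 0, and 7121.5, 7084.6 and 5567.9 at KO day 2. It rose in KO (0.99 ± 0.18, adjusted p = 0.00552) and was higher in KO than in WT at day 2 (0.70 ± 0.16, adjusted p = 0.0243). The WT change was not called (0.27 ± 0.18, adjusted p = 0.372). The difference of the changes was not called either (0.72 ± 0.26, adjusted p = 0.146), so a larger rise in KO was not shown. Its day 1 pools were high in both genotypes, at 8991.6 units in WT and 10300.7 in KO. Slc27a2, a very long-chain acyl-CoA ligase, fell in both genotypes (-0.77 ± 0.14 and -0.87 ± 0.14), and so did Hsd3b7, the dehydrogenase that follows the first hydroxylation (-0.75 ± 0.17 and -0.87 ± 0.17). The cholesterol carrier Stard4 fell in WT (-0.84 ± 0.17) and was not called in KO (-0.21 ± 0.17). The peroxisomal enzyme Hsd17b4 fell in KO (-0.87 ± 0.16). Its WT change was not called (-0.47 ± 0.16, adjusted p = 0.0822), but was called after quantile normalization (-0.64, adjusted p = 0.00899). The difference of the changes was not called for Stard4 (adjusted p = 0.162) or Hsd17b4 (adjusted p = 0.344). Star, a mitochondrial cholesterol carrier, rose in KO (0.97 ± 0.23), and the difference of its changes was called (1.41 ± 0.33, adjusted p = 0.0424) but not after quantile normalization (adjusted p = 0.0622). At day 2 Ch25h, a cholesterol hydroxylase, was higher in KO (0.84 ± 0.21) and Cyp2a12 lower (-0.71 ± 0.12), and neither was called after quantile normalization. The median change of this list was -0.09 in WT and -0.23 in KO, against -0.11 and 0.05 over all genes.

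Of 14 bile acid and bile lipid transporters, 3 rose and 4 fell in WT, and 4 rose and 3 fell in KO. Over all genes, 12.6% were called in WT and 8.69% in KO. The canalicular exporter Abcc2 rose in both genotypes, from 1346.9 and 1355.6 units at WT day 0 to 4293.9, 4669.1 and 4484.4 at WT day 2, and from 1481.8 and 1431.6 to 4533.7, 4012 and 3698.3 in KO. Its changes were 1.72 ± 0.12 and 1.47 ± 0.12. The basolateral exporters Abcc3 (1.65 ± 0.12 and 1.24 ± 0.12) and Abcc4 (2.41 ± 0.21 and 2.34 ± 0.21) rose too, and these 3 are known targets of CAR. The uptake transporter Slco1a1 fell in both (-1.81 ± 0.21 and -2.01 ± 0.21). Slco1a1 was also higher in KO than in WT at day 0 (1.42 ± 0.23, adjusted p = 0.0330), with 5546.7 and 3831.7 units against 1549.5 and 1881.6, and at day 2 (1.22 ± 0.19, adjusted p = 0.00450). The day 0 call rests on 2 arrays a group. It was lost with eBayes without trend and robust and with only the arrays compared, where 0 of all genes were called at day 0. Abcc3 was lower in KO at day 2 (-0.53 ± 0.11, adjusted p = 0.0128), a call that was lost after quantile normalization (-0.24, adjusted p = 0.152). The bile salt export pump Abcb11, a direct FXR target, was not called (0.07 in WT, adjusted p = 0.763, and -0.24 in KO, adjusted p = 0.313). The list's median change was -0.30 in WT and -0.17 in KO, against -0.11 and 0.05 over all genes.

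Of 15 regulators of bile acid synthesis, 0 rose and 4 fell in WT, and 0 rose and 2 fell in KO. Over all genes, 12.6% were called in WT (5.38% lower) and 8.69% in KO (4.49% lower). Klb, the co-receptor through which the gut hormone FGF15 signals to the hepatocyte, had 1630 and 1810.9 units at WT day 0, 529.1, 503.1 and 597.3 at WT day 2, 1397.5 and 1167.9 at KO day 0, and 968.5, 728.3 and 840.3 at KO day 2. It fell in WT (-1.64 ± 0.17, adjusted p = 8.25e-05). The KO change was in the same direction and not called (-0.60 ± 0.17, adjusted p = 0.0509), but was called after quantile normalization (-0.65, adjusted p = 0.0382). Klb was higher in KO at day 2 (0.62 ± 0.15, adjusted p = 0.0283), and its change differed between genotypes (1.04 ± 0.24, adjusted p = 0.0414). After quantile normalization neither of these 2 differences was called (0.51, adjusted p = 0.0689, and 0.95, adjusted p = 0.0718). Cebpa, a hepatocyte transcription factor, fell in both (-0.97 ± 0.15 and -0.89 ± 0.15), as did Nr1i3, the gene of CAR itself (-0.70 ± 0.16 and -0.63 ± 0.16). Foxo1 fell in WT (-0.74 ± 0.18) and was higher in KO at day 2 (0.61 ± 0.16, adjusted p = 0.0366), and Mafg, a repressor that FXR induces, was higher in KO at day 2 (0.65 ± 0.15, adjusted p = 0.0223). Fgf15, an intestinal gene, did not pass the filter. The list's median change was -0.17 in WT and -0.09 in KO, against -0.11 and 0.05 over all genes.

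Of 10 other FXR targets tested, some of which are also in the lists above, 1 rose and 2 fell in WT, and 1 rose and 3 fell in KO. Over all genes, 12.6% were called in WT and 8.69% in KO. Pltp, the phospholipid transfer protein gene that FXR induces, fell from 2817.4 and 2104.8 units to 705, 542.2 and 740.8 in WT (-1.87 ± 0.28, adjusted p = 0.00116) and from 3079.9 and 5180 to 776.3, 391.8 and 524.2 in KO (-2.84 ± 0.28, adjusted p = 8.67e-05). Kng1, the kininogen gene, fell in both (-0.94 ± 0.12 and -1.36 ± 0.12), and Fetub fell in KO (-0.87 ± 0.18). Sdc1, a cell surface proteoglycan gene, rose in WT (0.74 ± 0.17), a call that was lost after quantile normalization (adjusted p = 0.110). The 1 that rose in KO was Slc10a2, the ileal and biliary uptake transporter and 1 of the 4 ileal markers, a dim gene at 54.5 to 90.1 units at day 0 and 248.8 to 270.7 at KO day 2, for which no fold is given. Apoc2 was lower in KO at day 2 (-0.67 ± 0.14, adjusted p = 0.0164) and not called after quantile normalization (adjusted p = 0.0670). The list's median change was -0.20 in WT and -0.14 in KO, against -0.11 and 0.05 over all genes.

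**Figure D5:**
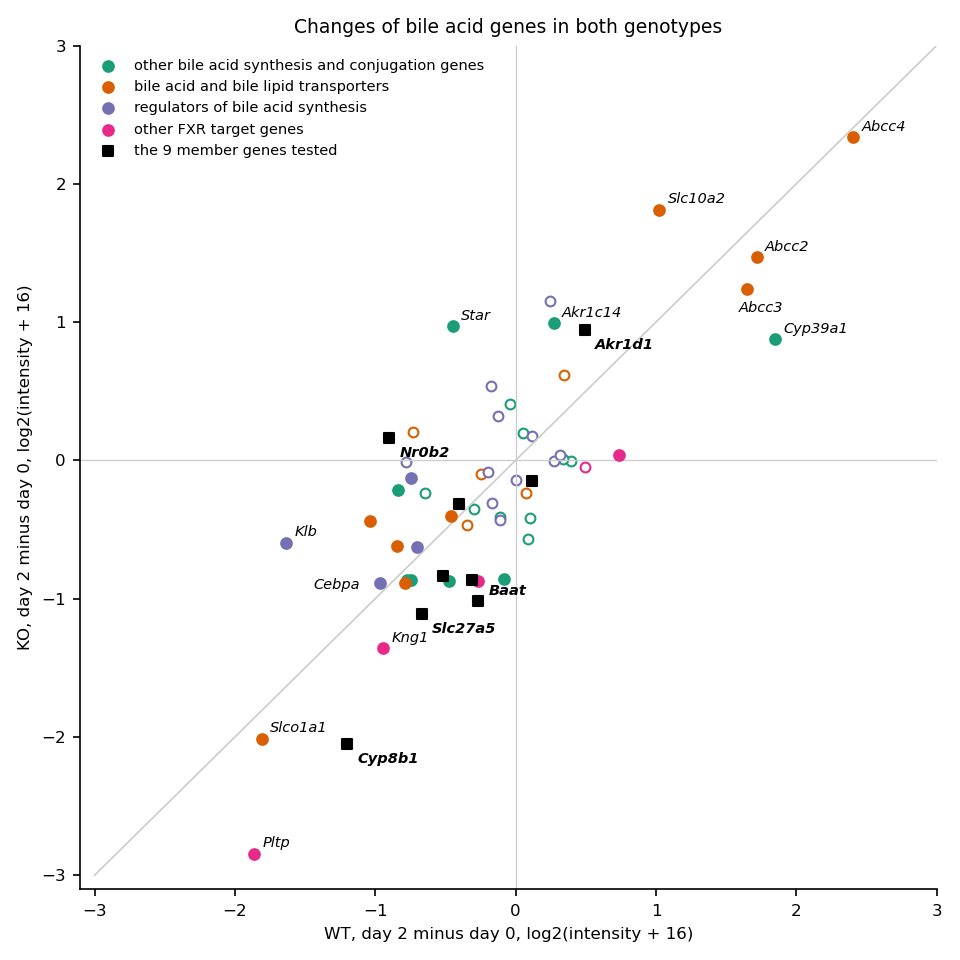
Change from day 0 to day 2 in WT (x axis) and in KO (y axis) on the log2 scale for the tested genes of the 4 lists (circles, filled where called in at least 1 genotype) and the 9 tested members (black squares, called or not), with the line of equal change. A gene in several lists is drawn once. Abcc2, Abcc3 and Abcc4 lie at the upper right and Pltp, Slco1a1 and Cyp8b1 at the lower left, and Nr0b2 lies left of the line at -0.90 in WT and 0.16 in KO.

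For each member called in at least 1 comparison, the 3 genes with the most similar signal over the 12 arrays were found among 12080 genes with a mean log2 level of at least 8, by Pearson r of log2 signals, as a description. The arrays of a group share their treatment, so these values mostly follow the 6 groups. Slc27a5 was closest to Upb1 (r = 0.99), Fah (0.98) and Igf1 (0.97), and Baat to Iyd (0.97), Gas6 (0.95) and Ttpa (0.94). Akr1d1 was closest to Crp (0.96), Cbr1 (0.93) and Gpd1l (0.93). Cyp8b1 was closest to Coq8a (0.94), Tbc1d32 (0.93) and Rnf213 (0.92), and Cyp7b1 to Nr3c1, Cadps2 (both 0.90) and Ndufb8 (0.89). Nr1h4 was closest to Gm7969 (0.92), Colec11 (0.91) and Pbld2 (0.90). Nr0b2 was closest to Atp6v1a (0.95), Axin2 (0.94) and Elovl7 (0.92), and without the 2 day 1 pools these came to 0.84, 0.84 and 0.79.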

How the data were processed

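Total liver RNA was measured on 12 Affymetrix arrays of 1 colour. Per the submitters' processing notes, the deposited intensities are linear MAS5 signals. They name no version. The authors' arrays share 1 scale: the trimmed mean signal (without the lowest and highest 2%) lies between 499.868 and 499.893 units on every array. Arrays have no read depth, and their number limits the precision.

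Intensities were used as deposited. Of 45101 probe sets, the platform's annotation gives 1 gene to 34945, several to 932 and none to 9160, and 64 are controls. Symbols can be old. One linear model with a mean for each of the 6 groups was fitted to log2(intensity + 16) in limma 3.58.1 (R 4.3.3), with 6 residual degrees of freedom and variances moderated by eBayes (trend = TRUE, robust = TRUE). P-values are two-sided and Benjamini-Hochberg adjusted over 14102 genes. The fit was tested on simulated data. Promoters and figures used Python 3.11.15, pandas 2.3.3 and matplotlib 3.10.9.

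The members, lists, rules and alternatives were chosen with earlier results of these data known. Named list genes are up to 4 called genes per list and comparison, by adjusted p, and a part of these is printed. Slc51a, Abcb11 and Fgf15 were added as partners or targets. Alternatives were other normalizations, pseudocounts, filters, probe set rules, variance models, samples in the fit, the replicate block and leaving out each replicate. Lists cover other synthesis and conjugation genes, transporters, regulators and FXR targets, and markers of hepatocytes, cholangiocytes, Kupffer, endothelial, stellate, lymphoid, erythroid and ileal cells.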

Additional observations from a re-analysis of the deposited data

Results flagged for a closer look

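Of the genes named in the report, 3 differed between the genotypes in their change from day 0 to day 2 by limma's test of that difference, and none of them is among the 10 members. The oxysterol hydroxylase gene Cyp39a1 rose less in KO, with a difference of -0.98 (adjusted p = 0.0394), from 671.1 and 902.5 units to 3083.9, 2549.6 and 2944.3 in WT and from 927.8 and 811.3 to 1650, 1700 and 1470.6 in KO. The cholesterol carrier gene Star had a difference of 1.41 (adjusted p = 0.0424), with 887 and 886.3 units at WT day 0, 561.9, 873.5 and 549.9 at WT day 2, 518.2 and 494.1 at KO day 0, and 778.7, 1124.2 and 1161.3 at KO day 2. The FGF15 co-receptor gene Klb had a difference of 1.04 (adjusted p = 0.0414). After quantile normalization none of the 3 was called, with adjusted p from 0.0622 to 0.0718. By the same test 4 of the 7 hepatocyte markers were called lower, and 0 were called after quantile normalization. Their part in these differences was not tested.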

How the results depend on the processing

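Of 15 called results on single genes, 253 of 301 alternative values kept the direction and the call and 48 lost the call. Of 39 that were not called, 717 of 761 values stayed so in the same direction, 12 became called and 32 turned in sign. When a day 0 array is left out, the lone array of that group takes its spread from the remaining groups. With 2 or 3 arrays a group and 6 residual degrees of freedom, the calls of variable genes move with single arrays: the averaged change of Cyp7a1 was not called with all arrays and was called in 2 of 23 alternatives. Where no cause is named, the cause was not tested.

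Counts of the 9 genes called moved as follows. Plain eBayes, without trend and robust, gave 1 in WT, 3 in KO and 0 between genotypes at day 2. The mean of the probe sets gave 3 in KO. Between genotypes at day 2, quantile normalization, cyclic loess and array weights gave 2 each, and for the difference of the changes quantile normalization and cyclic loess gave 1 each. Leaving out 1 replicate gave 0 to 2 in WT, 3 to 4 in KO, 0 to 2 between genotypes at day 2, 0 to 2 for the difference of the changes, 0 at day 0 and 5 to 7 for the average. In WT 0 remained called without either day 0 array and 1 without the first day 2 array.

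The replicate numbers share only a number: deviations of same-numbered arrays correlated between -0.024 and 0.034. With the replicate block, and without the pools, 2 genes were called in WT, 5 in KO, 1 between genotypes at day 2, 0 at day 0, 0 for the difference and 4 for the average.

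Over all genes, counts moved by more than 1.5 times in these cases. In WT, 1782 became 881 and 880 without either day 0 array. In KO, 1225 became 801 with only the arrays compared and 777 without the second day 2 array. Between genotypes at day 2, 1300 became 748 with plain eBayes and 408 to 758 without 1 array other than the second WT array. At day 0, 24 became 9 with no filter, 0 with plain eBayes or only the arrays compared, 4 with array weights, 8 with the block and 7 to 134 without 1 array. For the difference, 444 became 288 after quantile normalization, 275 with no filter, 76 with plain eBayes, 286 with the block and 57 to 698 without 1 array.

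Signs that turned, all of values that were not called, were these. After quantile normalization, Cyp27a1 was -0.15 in WT, 0.012 in KO, 0.21 between genotypes at day 2 and 0.16 for the difference, and Slc27a5 0.083 at day 2 and 0.047 for the difference. After cyclic loess, Cyp27a1 was -0.17, 0.059, 0.25 and 0.23 in the same order, and Slc27a5 0.20 and 0.13. With arrays centred on their medians, Nr1h4 was -0.061 at day 2 and -0.097 for the difference, Baat 0.014 at day 0 and Cyp27a1 0.016 in the average. With the mean of probe sets, Akr1d1 was 0.35 at day 0. Leaving out 1 replicate, Cyp7a1 ranged from -1.18 to 0.14 in WT, from -1.05 to 0.27 at day 0, and from -0.97 to 0.35 for the difference. Cyp27a1 ranged from -0.41 to 0.11 in KO, from -0.10 to 0.42 at day 0, and from -0.14 to 0.12 in the average. Cyp7b1 ranged from -0.28 to 0.00076 between genotypes at day 2, and Baat ranged from -0.16 to 0.15 at day 0. Nr1h4 ranged from -0.13 to 0.17 at day 0, and from -0.059 to 0.24 for the difference.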
